A study of Mus musculus with 2 samples.

Results

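The 47 imprinted genes described here were taken by symbol from a list of known mouse imprinted loci. The rule that names them uses no measured value, although the list was drawn up with earlier results of these data known. All 47 were among the 32286 features of the count matrices. They lie in 12 clusters of more than 1 member, which hold 39 of them, and 8 stand alone. Their RNA was counted in 2 droplet-based single-cell RNA-seq libraries, one of mouse embryonic stem cells (ESCs) kept in serum and LIF on feeder cells (0 h) and one of epiblast-like cells after 48 h in activin A, bFGF2 and 1% KSR on Matrigel (48h-EpiLCs). EpiLCs are a culture model of the early post-implantation epiblast. Each library was a mixture of wild-type (WT) cells of the ROSA mT/mG line, which carries a ubiquitously expressed membrane tdTomato reporter, and of Cnot8 knockout (KO) cells, which lack a deadenylase of the Ccr4-Not complex that shortens mRNA poly(A) tails. The KO line was derived from blastocysts of heterozygous parents whose founders had been targeted in Cnot8 with CRISPR/Cas9, and was grown from a picked colony. The strain label of both libraries is ICR, and the genotype label of both is wild type although each held both lines.

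Cells were assigned to a line by their transcripts. A cell counted as WT with at least 1 tdTomato UMI (unique molecular identifier, 1 counted RNA molecule) and none from the Y-linked genes Ddx3y, Eif2s3y, Kdm5d and Uty, and as KO with no tdTomato UMI and at least 2 from those genes. Cells were kept at 1000 or more genes and 10% or less of UMIs from mitochondrial genes, and the rule then gave 435 WT and 2978 KO ESCs out of 11054, and 368 WT and 2977 KO 48h-EpiLCs out of 9400. The remaining cells met neither rule, because they held too few of these UMIs or UMIs of both kinds, and entered neither line. The labels state that WT and KO cells were mixed in equal numbers, so at that proportion the WT class is a small subset of the WT cells, selected by a detected tdTomato transcript. The libraries held 1 WT and 1 KO line and 1 library per stage, with no replicates, so no test of a condition was possible. Intervals given below are 95% intervals for counting error only. KO genotype, line origin and sex-linked transcription cannot be told apart, nor can stage, library and culture (the study's EpiLCs are described as made from ESCs kept in 2i/LIF).

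Imprinted genes are transcribed from the maternal or the paternal chromosome only, or mainly, because an imprinting control region carries DNA methylation on one parental copy. Methylation set in the egg or the sperm is kept through early development by KRAB zinc finger proteins such as ZFP57, which recruit TRIM28 and SETDB1, and by DNMT1 with UHRF1. Many of the genes regulate fetal and placental growth, with paternally expressed genes such as Igf2, Peg3 and Mest and maternally expressed genes such as H19, Cdkn1c and Phlda2 among the best known. By textbook assignment 23 members are paternally expressed and 22 maternally, the latter at least in some tissue. Grb10 and Gnas are expressed from either copy depending on the promoter. The present counts sum both parental alleles, so they give RNA levels and not the imprinting state.

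Promoter sequences are shown for 3 loci on which the results below turn. Peg3 and Usp29 share a divergent promoter, and their 163 bases between the 2 annotated starts (RefSeq, GRCm38.p6, chr7:6730420-6730582, plus strand) are printed with the 5 CG dinucleotides in capitals. The stretches upstream of Mest (chr6:30737800-30738015, plus strand) and Meg3 (chr12:109540779-109540838, plus strand) are printed with TGCCGC, the core of the motif bound by ZFP57, or its reverse complement GCGGCA in capitals.
Peg3-Usp29: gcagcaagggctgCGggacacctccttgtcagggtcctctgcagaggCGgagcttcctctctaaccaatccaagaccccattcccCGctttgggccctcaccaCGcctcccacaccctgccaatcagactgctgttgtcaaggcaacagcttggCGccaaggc
Mest: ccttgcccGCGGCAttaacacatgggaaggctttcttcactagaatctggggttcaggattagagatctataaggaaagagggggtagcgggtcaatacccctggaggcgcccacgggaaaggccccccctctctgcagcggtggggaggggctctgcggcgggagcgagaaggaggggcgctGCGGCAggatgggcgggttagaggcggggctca
Meg3: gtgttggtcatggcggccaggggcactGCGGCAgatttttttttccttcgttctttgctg

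The Peg3-Usp29 stretch, cut by the 2 starts, held 0 copies of TGCCGC. The Mest and Meg3 stretches were cut around the motif from a window that held it. Their 2 copies and 1 copy are therefore no comparison between the loci. A further annotated window of Mest and a further one of Meg3 held 0. RefSeq promoter windows, from 250 bases before to 50 bases after a start, were found for 37 of the 47 members (55 windows), and 13 of the 55 (23.6%), belonging to 12 members, held TGCCGC on either strand. Among all 32851 windows of the same length the share was 11.6%. The member windows held a median of 15 CG dinucleotides and all windows a median of 7, and a difference in base composition alone was not separated from the motif.

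The libraries held 13184 and 12427 barcodes, with medians of 11883 and 15284 UMIs per kept cell. Summed UMIs were 6154790 in WT and 44110356 in KO ESCs, and 6219834 in WT and 59291903 in KO 48h-EpiLCs, so that WT levels had the wider intervals. The stage markers followed the labels in both lines. Zfp42, a naive pluripotency gene, stood at 304 CPM (UMIs of a gene per 1e+06 UMIs of the class) in WT ESCs, 603 in KO ESCs, 37.5 in WT 48h-EpiLCs and 97.1 in KO 48h-EpiLCs. Fgf5, an epiblast gene, was at 2.76, 1.29, 53.4 and 35.9 CPM. At each stage the KO class thus had more Zfp42, with KO-WT ratios of 1.99 and 2.59, and less Fgf5, and the part of this difference in the member ratios between the lines was not tested. The targeted gene, Cnot8, was not lower in the KO classes, with 72.1 against 43.1 CPM in ESCs and 62.6 against 49.7 CPM in 48h-EpiLCs. The guide targeted exon 2 while the library reads transcript 3′ ends, so this gives no check of the KO label. The ESC library also held 166 cells with fibroblast markers (feeder fibroblast-like), 95 with primitive endoderm markers and 25 with 2-cell markers, and 48, 40 and 5 of these met the KO rule but only 1, 3 and 1 the WT rule. The 10 fibroblast markers together made up 74.0 CPM in KO and 17.2 CPM in WT ESCs, against 24.0 and 14.9 CPM without the gated cells and 2684 CPM in the feeder fibroblast-like cells, with 1 of the 10 at 0 in WT ESCs. The 8 primitive endoderm markers made up 37.3 and 19.7 CPM, or 21.6 and 11.7 CPM without the gated cells. For the 48h-EpiLCs the fibroblast sums were 9.01 and 6.59 CPM, and no cell passed the fibroblast or endoderm gate. Doublets were not called. Of 517 and 452 tdTomato-positive cells, 35 and 35 also held at least 2 Y-linked UMIs. The libraries shared 41 barcodes (0.330% of those in the 48h-EpiLC library), 2 of them in the 4 classes.

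Levels are given as CPM of the UMIs summed over each class. A gene was measured in a comparison when its mean CPM over the 2 classes was at least 5, and it was past 1.5-fold when the log2 ratio of CPM + 1 passed log2 of 1.5. Of the 47 members, 34 were measured in at least 1 comparison and 30 in all 4, and 21 reached 20 CPM in at least 1 class. The other 13 (Zim1, Igf2, Airn, Rtl1, Magel2, Mkrn3, Asb4, Plagl1, Kcnq1, Slc22a18, Trappc9, Peg13 and Nap1l5) lay between 0 and 5.36 CPM in the 4 classes. In ESCs, 4 of 32 measured members were past 1.5-fold higher in KO and 4 lower, against 12.4% and 4.98% of the 9277 genes measured. In 48h-EpiLCs, 2 of 32 were higher in KO and 4 lower, against 8.07% and 4.3% of 9385 genes. Between the stages, 6 of 32 members were higher in WT 48h-EpiLCs than in WT ESCs and 7 lower, against 13.3% and 11.4% of 9242 genes. Among KO cells, 1 of 30 was higher at 48 h and 7 lower, against 8.55% and 10.1% of 9478 genes. Thus 4 of 32 members higher in KO ESCs is about the share among all genes. The 4 of 32 lower in KO is a larger share than among all genes in both libraries but rests on few genes. In ESCs they include Peg3 and Usp29, which share a promoter. Fewer members were lower in both libraries under another choice of cells, the division by Y-linked UMIs given below.

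**Figure D1:**
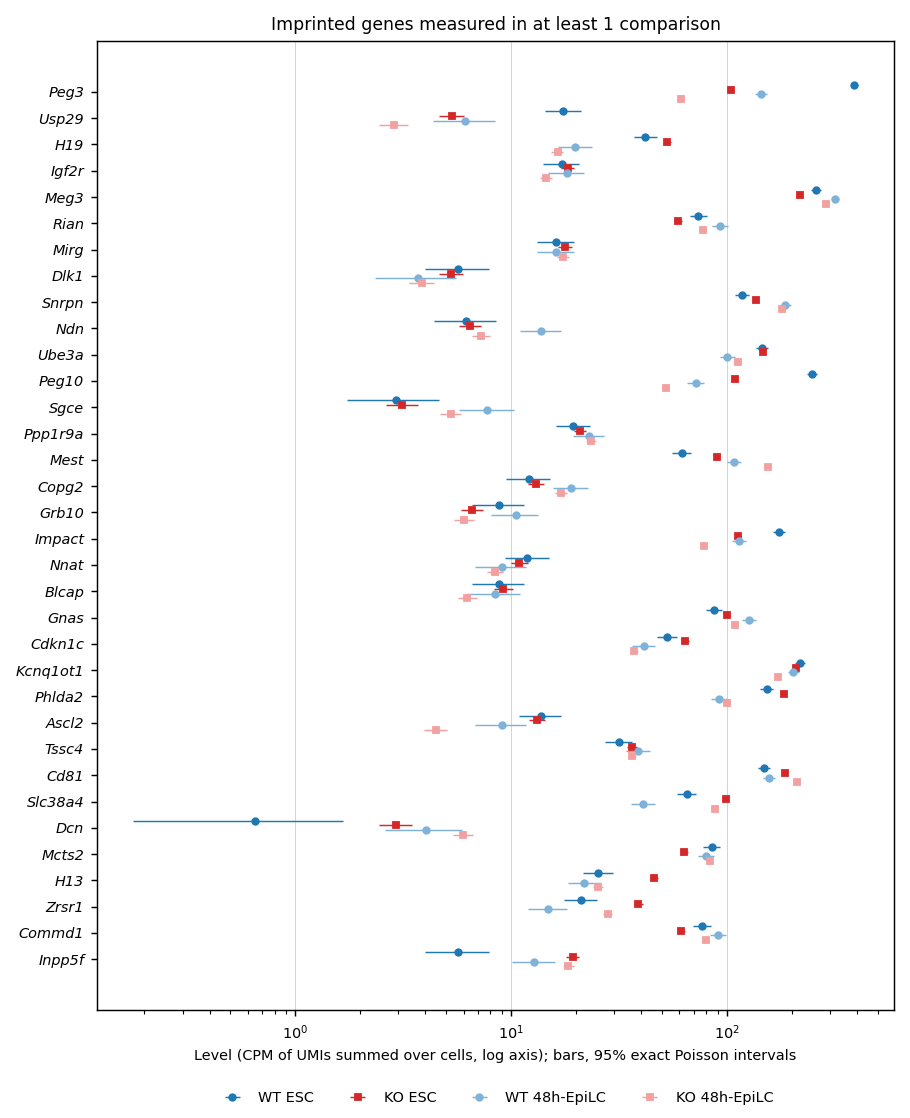
Levels of the 34 members measured in at least 1 comparison, as CPM of summed UMIs on a log axis, in WT ESCs, KO ESCs, WT 48h-EpiLCs and KO 48h-EpiLCs (circles, WT; squares, KO; pale, 48h-EpiLC; bars, 95% exact Poisson intervals). Peg3 and Peg10 are highest in WT ESCs, at 387 and 247 CPM, and lowest in KO 48h-EpiLCs, at 60.8 and 51.9 CPM.

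The median log2 ratio of the members was 0.07 for KO over WT in ESCs, where the median of all genes was 0.12, and −0.14 in 48h-EpiLCs, where it was 0.07. For 48h-EpiLC over ESC it was −0.03 in WT cells (all genes 0.03) and −0.14 in KO cells (all genes −0.02). Scaling by TMM (a trimmed-mean normalisation) shifted the all-gene medians of the KO-WT comparisons to 0.03 and 0.03, and the member median in ESCs then was −0.02. The shares of all genes past 1.5-fold in ESCs were then 9.23% higher and 6.94% lower in KO. Split by the allele usually expressed, the 14 measured paternal members had a median of −0.08 for KO over WT in ESCs with 3 past 1.5-fold higher and 4 lower, and the 16 maternal members a median of 0.10 with 1 higher and 0 lower. All 4 members lower in KO ESCs (Peg3, Usp29, Peg10 and Impact) were therefore assigned to the paternal allele. So were 3 of the 4 higher (Slc38a4, Zrsr1 and Inpp5f). Which allele these cells used was not measured. The corresponding medians in 48h-EpiLCs were −0.09 for 13 paternal and −0.14 for 17 maternal members.

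Peg3 is a paternally expressed zinc finger gene (ENSMUSG00000002265, chromosome 7 from 6703892 to 6730431, minus strand). With cells of other types left in, it was the only member past 1.5-fold lower in KO in both libraries. Its level was 387 CPM (372 to 403) in WT ESCs and 104 CPM (101 to 107) in KO ESCs, a ratio of 0.269 (0.256 to 0.283). The 48h-EpiLC levels were 143 CPM (134 to 153) in WT and 60.8 CPM (58.8 to 62.8) in KO, a ratio of 0.425 (0.395 to 0.458). All 4 intervals were separate, and the order of the classes was WT ESC, WT 48h-EpiLC, KO ESC and KO 48h-EpiLC. The ratio of 48h-EpiLC to ESC was 0.370 (0.342 to 0.399) in WT and 0.583 (0.558 to 0.609) in KO cells. Leaving out cells of other types changed the KO-WT ratio in ESCs to 0.271. Grb10 was then also lower in KO in both libraries, with ratios of 0.541 (0.399 to 0.744) in ESCs and 0.574 (0.440 to 0.760) in 48h-EpiLCs. Usp29, a ubiquitin-specific protease gene transcribed away from Peg3 out of the promoter printed above, stood at 17.4 CPM in WT ESCs, 5.28 in KO ESCs, 6.11 in WT 48h-EpiLCs and 2.85 in KO 48h-EpiLCs. In ESCs its KO-WT ratio was 0.304 (0.241 to 0.386), overlapping the interval of Peg3, and its stage ratio in WT cells was 0.351 (0.236 to 0.513). Both genes of the divergent pair thus had the same order of the 4 classes, though the Usp29 intervals of WT 48h-EpiLCs and KO ESCs overlapped. The third gene of the cluster, the maternally expressed Zim1, had 4, 12, 0 and 8 UMIs in the 4 classes.

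Peg10, a paternally expressed gene derived from a retrotransposon and needed for the placenta (chromosome 6 from 4747306 to 4760517, plus strand), behaved like Peg3 in direction. It stood at 247 CPM (235 to 260) in WT ESCs, 108 (105 to 111) in KO ESCs, 71.2 (64.7 to 78.2) in WT 48h-EpiLCs and 51.9 in KO 48h-EpiLCs. The KO-WT ratio was 0.437 (0.413 to 0.463) in ESCs and 0.728 (0.659 to 0.806) in 48h-EpiLCs, the latter within 1.5-fold. Between stages the ratio was 0.288 (0.259 to 0.321) in WT and 0.480 (0.459 to 0.502) in KO cells. Sgce, the sarcoglycan epsilon gene that starts next to Peg10 on the opposite strand, did not share this pattern. It was at 2.92, 3.13, 7.72 and 5.23 CPM in the same order of classes, and its WT stage ratio was 2.64 (1.51 to 4.82), opposite in direction to that of Peg10. Ppp1r9a, an actin-binding protein gene of the cluster assigned to the maternal allele, kept between 19.3 and 23.4 CPM in all 4 classes. Impact, a paternally expressed regulator of translation through GCN2 on chromosome 18, stood at 173, 112, 114 and 77.8 CPM. Its KO-WT ratios were 0.647 (0.606 to 0.692) and 0.685 (0.633 to 0.742) and its stage ratios 0.655 (0.595 to 0.721) in WT and 0.693 (0.665 to 0.721) in KO, all close to the 1.5-fold limit, which was passed in ESCs and in WT cells.

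The members higher in KO included the amino acid transporter gene Slc38a4 and the splicing factor gene Zrsr1, which were past 1.5-fold in both libraries. Slc38a4 (paternally expressed, chromosome 15) was at 64.7 CPM in WT ESCs, 98.9 in KO ESCs, 40.8 in WT 48h-EpiLCs and 87.2 in KO 48h-EpiLCs. Its KO-WT ratio was 1.53 (1.38 to 1.70) in ESCs and 2.14 (1.88 to 2.43) in 48h-EpiLCs, and its WT stage ratio 0.632 (0.537 to 0.741) against 0.882 (0.847 to 0.918) in KO. With TMM scaling the ESC log2 ratio of Slc38a4 was 0.51, within 1.5-fold. Zrsr1, an intronless paternally expressed gene within Commd1 on chromosome 11, was at 20.96, 38.7, 14.8 and 27.9 CPM, with KO-WT ratios of 1.84 (1.54 to 2.22) and 1.89 (1.53 to 2.35). Its host Commd1, a copper metabolism and NF-kappaB regulator on the opposite strand, was assigned to the maternal allele. Commd1 moved within 1.5-fold and in the other direction, at 76.4, 61.3, 90.7 and 79.8 CPM. The 2 genes overlap in their exons, and whether the counting used strand is not given in the sources used here.

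Inpp5f, an inositol phosphatase gene on chromosome 7, had the highest KO-WT ratio in ESCs among the 32 members measured there, 3.38 (2.41 to 4.88), from 5.69 CPM (35 UMIs) in WT and 19.2 in KO. In 48h-EpiLCs it was at 12.7 and 18.3 CPM, a ratio of 1.44 (1.15 to 1.84), and only the WT stage ratio, 2.23 (1.48 to 3.43), was past 1.5-fold. H13, a signal peptide peptidase gene, was at 25.2, 45.7, 21.7 and 25.1 CPM, with a KO-WT ratio of 1.81 (1.54 to 2.15) in ESCs and 1.16 (0.970 to 1.39) in 48h-EpiLCs. H13 was also high in feeder fibroblast-like cells, at 222 CPM, and without the gated cells its ESC ratio was 1.69 (1.43 to 2.01). Mcts2, a paternally expressed intronless gene inside H13, was at 84.5, 63.0, 79.6 and 83.1 CPM and within 1.5-fold throughout. Mest, a paternally expressed hydrolase gene, was at 61.6, 89.9, 107 and 155 CPM, just within 1.5-fold for KO over WT in both libraries, with ratios of 1.46 (1.31 to 1.63) and 1.44 (1.33 to 1.56).

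Several calls between the lines changed with the choice of cells. With WT cells found by tdTomato alone (517 ESCs), the KO-WT log2 ratio in ESCs was −1.79 for Peg3, −1.09 for Peg10, 1.37 for Inpp5f, 0.63 for H13 and 0.82 for Zrsr1, all past 1.5-fold, while Impact (−0.58) and Slc38a4 (0.54) were just within it. Keeping the rule for the lines but only cells of at least 20000 UMIs, an alternative chosen after seeing the data, left 47 WT and 490 KO ESCs. The ratio was then −1.52 for Peg3 instead of −1.88, −0.90 for Peg10 instead of −1.19 and 1.45 for Inpp5f instead of 1.60, and Slc38a4 (0.79) and H13 (0.71) also stayed past 1.5-fold. Usp29 (−0.54), Impact (−0.50) and Zrsr1 (0.35) did not. When cells of that depth were divided by Y-linked UMIs alone (0 as WT, at least 2 as KO), which gave 286 WT and 517 KO ESCs, Peg3 (−1.11), Peg10 (−0.66) and Inpp5f (0.68) stayed past 1.5-fold, and Usp29 (−0.54), Impact (−0.34), Slc38a4 (0.43), H13 (0.28) and Zrsr1 (0.38) did not. For 48h-EpiLCs, Peg3 (−1.24 with the depth limit, −0.86 with the division by Y-linked UMIs) and Slc38a4 (0.97 and 0.71) stayed past 1.5-fold in both, and Zrsr1 (0.47 and 0.80) in the second.

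**Figure D2:**
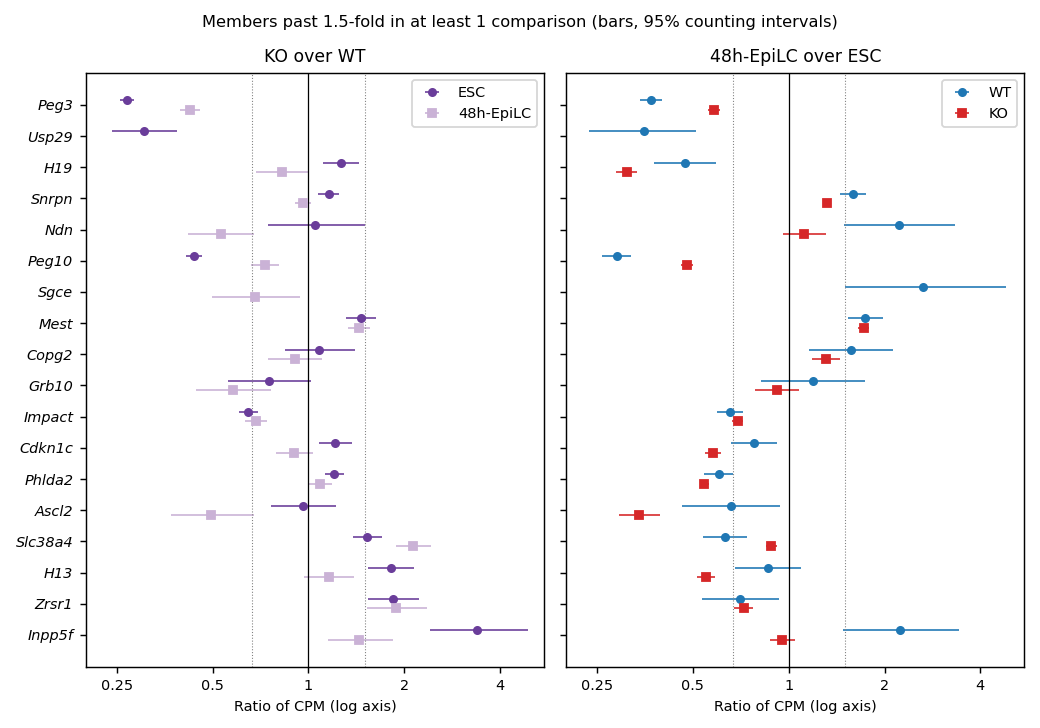
Ratios of CPM on a log axis for the 18 members past 1.5-fold in at least 1 comparison (left, KO over WT in ESCs and 48h-EpiLCs; right, 48h-EpiLC over ESC in WT and KO cells; bars, 95% counting intervals; dotted lines, 1.5-fold; ratios of unmeasured genes are not drawn). Peg3 is left of the dotted line in all 4 comparisons, at 0.269, 0.425, 0.370 and 0.583, and Mest right of it in both stage comparisons, at 1.74 and 1.72.

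In 48h-EpiLCs alone, 3 further members were past 1.5-fold lower in KO, all at low levels. Ndn, the necdin gene of the Prader-Willi region, was at 13.7 CPM in WT and 7.24 in KO, a ratio of 0.529 (0.419 to 0.676). For Grb10, an adaptor that restrains insulin receptor signalling, the levels were 10.5 and 6.04 CPM and the ratio 0.578 (0.443 to 0.765). Ascl2, a transcription factor of trophoblast, was at 9.0 and 4.45 CPM with a ratio of 0.495 (0.369 to 0.672). All 3 lay within 1.5-fold under the division by Y-linked UMIs, at log2 ratios of −0.42, −0.50 and −0.36. With the depth limit of 20000 UMIs alone, Ndn was at −0.38 and Ascl2 at −1.11, and Grb10 was on the other side of 0, at 0.28. With WT cells found by tdTomato alone Grb10 was at −0.58, just within 1.5-fold. In the ESC library Ndn (1.05, 0.744 to 1.51), Grb10 (0.749, 0.559 to 1.02) and Ascl2 (0.962, 0.764 to 1.22) had KO-WT intervals that included 1, but without cells of other types the ratio of Grb10 was 0.541 (0.399 to 0.744). Feeder fibroblast-like cells carried 87.5 CPM of it.

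Between the stages, 4 members were past 1.5-fold lower at 48 h in both lines, namely Peg3, Peg10, H19 and Phlda2, and 1, Mest, was higher in both. H19, the maternally expressed non-coding RNA next to Igf2, was at 41.8 CPM in WT ESCs, 52.7 in KO ESCs, 19.8 in WT 48h-EpiLCs and 16.3 in KO 48h-EpiLCs. Its stage ratio was 0.474 (0.379 to 0.589) in WT and 0.310 (0.287 to 0.334) in KO, or 0.496 and 0.336 without cells of other types, which carried more of it. The KO-WT ratios of H19 were 1.26 (1.11 to 1.44) in ESCs and 0.826 (0.684 to 1.01) in 48h-EpiLCs. Igf2 itself, the growth factor gene regulated by the same control region, had 3 UMIs in WT ESCs, 185 in KO ESCs, 3 in WT 48h-EpiLCs and 28 in KO 48h-EpiLCs. The KO ESC level of Igf2, 4.19 CPM, was 2.37 CPM without cells of other types. Mest was at 1.74 (1.53 to 1.98) in WT and 1.72 (1.66 to 1.78) in KO as a stage ratio. In cells of at least 20000 UMIs the WT log2 stage ratio of Mest was 0.51 instead of 0.79 and that of Usp29 −0.32 instead of −1.37, both within 1.5-fold. Copg2, a coatomer subunit gene that overlaps the end of Mest on the opposite strand, was at 12.02, 12.99, 18.8 and 17.02 CPM, with a WT stage ratio of 1.56 (1.16 to 2.12) and a KO one of 1.31 (1.18 to 1.45).

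The Kcnq1 domain on chromosome 7, where the paternal non-coding RNA Kcnq1ot1 silences its neighbours, held 3 members past 1.5-fold lower at 48 h in at least 1 line and 3 measured members within 1.5-fold. Phlda2, which limits placental growth, was at 152, 183, 91.5 and 99.3 CPM, with stage ratios of 0.603 (0.542 to 0.670) in WT and 0.543 (0.525 to 0.562) in KO. Cdkn1c, the cyclin-dependent kinase inhibitor p57, was at 52.6, 63.9, 41.0 and 37.0 CPM and past 1.5-fold only in KO, 0.580 (0.548 to 0.613). Ascl2 was at 13.6, 13.1, 9.0 and 4.45 CPM with a KO stage ratio of 0.339 (0.292 to 0.393), and its WT ratio of 0.660 (0.462 to 0.936) was near the limit. Kcnq1ot1 itself was at 217, 208, 202 and 172 CPM, within 1.5-fold in all 4 comparisons, with a KO stage ratio of 0.827 (0.803 to 0.8503). The tetraspanin gene Cd81 (148, 184, 155 and 210 CPM) and Tssc4, a U5 snRNP assembly factor (31.5, 36.2, 38.7 and 36.3 CPM), also stayed within 1.5-fold. Kcnq1, the potassium channel gene that Kcnq1ot1 runs antisense to, had 0, 2, 0 and 0 UMIs. By a floor of 3 counts over the class, a count of 0 allows up to 0.487 CPM in WT ESCs and 0.0506 CPM in KO 48h-EpiLCs. The domain held Kcnq1ot1 RNA beside readily counted Cdkn1c, Phlda2 and Cd81 in each class.

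On chromosome 12, the maternally expressed non-coding RNAs Meg3, Rian and Mirg are thought to derive from a shared transcription unit controlled by the region between Dlk1 and Meg3. Meg3 was at 258 CPM in WT ESCs, 217 in KO ESCs, 315 in WT 48h-EpiLCs and 285 in KO 48h-EpiLCs. Rian was at 73.4, 59.0, 92.4 and 77.3 CPM. Both were lower in KO than in WT with intervals below 1, at KO-WT ratios of 0.844 (0.8004 to 0.891) and 0.907 (0.865 to 0.951) for Meg3 and 0.804 (0.727 to 0.890) and 0.836 (0.766 to 0.913) for Rian, and both were higher at 48 h, at 1.22 and 1.31 for Meg3 and 1.26 and 1.31 for Rian in WT and KO. All of these were within 1.5-fold, and the intervals leave out the uneven spread of Meg3 over cells given below. Mirg, a microRNA host, was at 16.1, 17.7, 16.1 and 17.4 CPM. The paternally expressed Notch ligand homologue Dlk1 was at 5.69, 5.26, 3.70 and 3.85 CPM and the retrotransposon-like Rtl1 stayed at or under 0.487 CPM.

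The Prader-Willi and Angelman cluster was carried by Snrpn and Ube3a. Snrpn, a paternally expressed splicing protein gene whose exons are shared with Snurf, was at 117, 135, 185 and 178 CPM, with stage ratios of 1.59 (1.44 to 1.74) in WT and 1.32 (1.28 to 1.36) in KO. The ubiquitin ligase gene Ube3a was at 145, 146, 99.8 and 113 CPM, lower at 48 h by ratios of 0.689 (0.621 to 0.764) and 0.773 (0.747 to 0.8002). Snrpn and Ube3a thus differed in direction between the stages. Ndn was at 6.17, 6.46, 13.7 and 7.24 CPM, with a WT stage ratio of 2.21 (1.49 to 3.34). Without cells of other types the KO stage ratio of Ndn went from 1.12 to 1.63. In that setting 2 members rather than 1 were past 1.5-fold higher at 48 h in KO cells, against 9.02% of all genes. Gnas, the stimulatory G protein subunit gene, was at 87.1, 100 and 126 CPM in WT ESCs, KO ESCs and WT 48h-EpiLCs and 108 CPM in KO 48h-EpiLCs. The remaining measured members (Igf2r, Nnat, Blcap and Dcn) lay between 0.65 and 18.2 CPM and within 1.5-fold wherever measured. In all, 14 members were within 1.5-fold in each of the 4 comparisons.

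A list of 12 factors that keep imprints was examined beside the members. None of the 12 was past 1.5-fold between the lines in ESCs (median log2 ratio 0.07), where 12.4% of all genes were higher and 4.98% lower in KO. In 48h-EpiLCs Zfp57 and Dppa3 were higher in KO and 0 were lower, against 8.07% and 4.3% of all genes. Zfp57, the zinc finger protein that reads methylated imprinting control regions, was at 130 CPM in WT ESCs, 124 in KO ESCs, 20.4 in WT 48h-EpiLCs and 40.7 in KO 48h-EpiLCs. Its stage ratio was 0.157 (0.129 to 0.189) in WT and 0.328 (0.312 to 0.344) in KO. Dppa3, which protects imprints against demethylation in the zygote, was at 16.2, 12.9, 21.5 and 48.4 CPM, with a KO-WT ratio of 2.25 (1.89 to 2.69) in 48h-EpiLCs. Trim28, the corepressor recruited by ZFP57, and Atrx, a chromatin remodeller, were lower at 48 h in both lines, with stage ratios of 0.605 (0.578 to 0.633) and 0.653 (0.644 to 0.662) for Trim28 and 0.574 (0.539 to 0.610) and 0.643 (0.628 to 0.657) for Atrx. Smchd1, a chromosomal protein that silences imprinted clusters and the inactive X, was higher in WT 48h-EpiLCs, 1.69 (1.48 to 1.92). Zfp445, Setdb1, Uhrf1, Dnmt1, Ctcf, Arid4a and Arid4b stayed within 1.5-fold in all 4 comparisons. Counted over the list, 1 of 12 was higher and 3 of 12 lower at 48 h in each line, against 13.3% and 11.4% of all genes in WT and 8.55% and 10.1% in KO cells.

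Several members were much higher in cells of another type. Among the 166 feeder fibroblast-like cells found with the ESCs, 15 of 37 members at a mean of at least 5 CPM were 1.5-fold or more higher than in the other cells and 12 lower, against 30.4% and 31.7% of the 10049 genes at that level. Igf2, Dlk1, Dcn, Plagl1 and Sgce were under 5 CPM in the other cells. They reached that mean only through the feeder fibroblast-like cells, so they could count only as higher. The count is therefore no support for a trait of the members. Igf2 was at 107 CPM (94.7 to 121) there against 2.3 CPM in the other cells, a ratio of 47.5 (40.1 to 56.1). Dlk1 (88.4 CPM), Ndn (90.4 CPM) and Grb10 (87.5 CPM) were 19.5-, 14.1- and 12.7-fold higher, and the small proteoglycan gene Dcn (50.1 CPM) 25.4-fold. Gnas reached 964 CPM, 10.9-fold the level in the other cells (10.4 to 11.4), Cd81 730 CPM, H13 222 CPM and Meg3 608 CPM. Phlda2 (44.8 CPM), Slc38a4 (25.9 CPM) and Peg10 (42.7 CPM) were lower there than in the other cells, at 180, 85.9 and 155 CPM. Peg3 was at 110 CPM against 204 in the other cells. Levels in the other cells should be read with the free RNA in droplets in mind, which was not measured. Fibroblast markers stood there at 0.517 to 6.02% of their level in the feeder fibroblast-like cells. The same markers set the gate and doublets were not called, so these shares are no measure of free RNA alone. H19 stood out in the 95 primitive endoderm-like cells, at 410 CPM (376 to 447) against 46.6 in the other cells, a ratio of 8.81 (8.04 to 9.64), while Cdkn1c (17.6 CPM) and Phlda2 (56.0 CPM) were lower there. In those cells 6 of 33 members were higher and 9 lower, against 14.4% and 12.2% of all genes. The 25 2-cell-like cells had 8 of 32 members higher and 11 lower, against 18.9% and 27.1% of all genes, with Meg3 at 56.5 CPM (30.1 to 96.6). Plagl1 in both of these gates, and Trappc9 in the 2-cell one, likewise reached a mean of 5 CPM only through the gated cells.

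**Figure D3:**
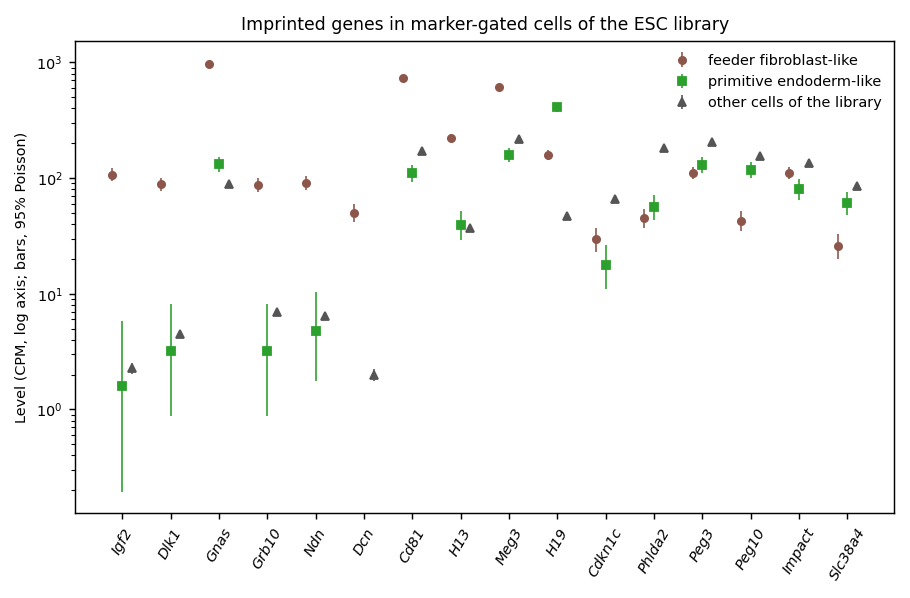
Levels of 16 members in feeder fibroblast-like, primitive endoderm-like and other cells of that library (serum/LIF ESCs), as CPM of summed UMIs on a log axis (bars, 95% exact Poisson intervals; Dcn has 0 UMIs in the primitive endoderm-like cells and no point). Igf2, Dlk1, Gnas, Grb10, Ndn and Dcn are highest in feeder fibroblast-like cells, and H19 in primitive endoderm-like cells, at 410 CPM.

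The share of cells with a UMI gave the same order for Peg3. After each cell was thinned to 5000 UMIs, 76.7% of 434 WT ESCs held a Peg3 UMI (72.5 to 80.6%, exact binomial) against 34.6% of 2955 KO ESCs (32.8 to 36.3%), and 41.7% of WT against 23.3% of KO 48h-EpiLCs. Unthinned, the shares were 94.0, 62.2, 79.3 and 59.1% at median depths of 13151, 13368, 15598 and 17628 UMIs. In feeder fibroblast-like cells the thinned share was 27.2% (20.2 to 35.0%). Peg10 was detected in 62.0% of WT ESCs, 36.8% of KO ESCs, 24.3% of WT 48h-EpiLCs and 21.02% of KO 48h-EpiLCs, and in 13.9% of feeder fibroblast-like cells. Slc38a4 had the reverse order of the lines, with 26.96% in WT and 37.8% in KO ESCs and 16.9% and 34.4% in 48h-EpiLCs, against 9.93% in feeder fibroblast-like cells.

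Meg3 and H19 were unevenly spread over cells. The mean of Meg3 was 1.21 UMIs per thinned WT ESC, near that of Peg10 at 1.24, yet 45.9% of the cells held a Meg3 UMI against 62.0% for Peg10, and its variance was 2.96 times its mean against 1.79 times. In the other classes the variance of Meg3 was 2.60 times (KO ESC), 3.18 times (WT 48h-EpiLC) and 2.19 times (KO 48h-EpiLC) its mean, where random counts would give about 1. H19 was found in 10.8% of WT and 15.5% of KO ESCs, with variances of 3.66 and 4.02 times the mean, and of 2.39 and 3.09 times without cells of other types. The thinned values without cells of other types come from a separate random thinning. Their differences from the main values therefore mix the removal of cells with the random draw. H19 was found in 53.8% of primitive endoderm-like cells. Cd81, at a mean of 0.79 UMIs in WT ESCs, had a variance of 1.18 times its mean. For Dlk1 in KO ESCs the ratio was 5.59, and 1.14 without cells of other types.

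**Figure D4:**
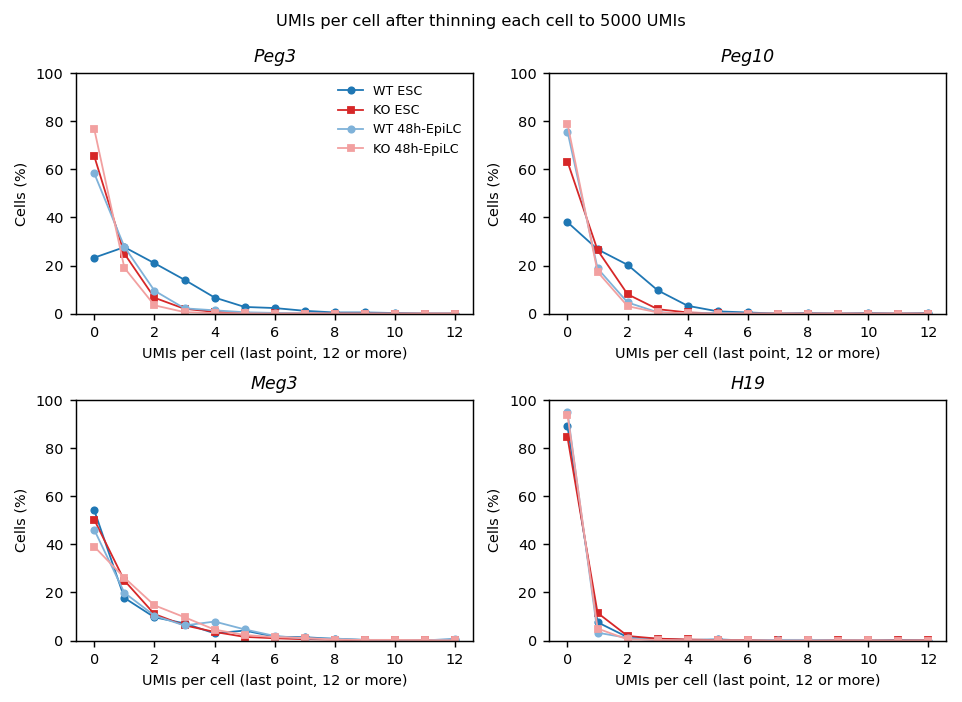
Share of cells (%) by UMIs per cell for Peg3, Peg10, Meg3 and H19 in the 4 classes, after thinning each cell to 5000 UMIs (last point, 12 or more UMIs). For Peg3, 23.3% of WT ESCs lie at 0 UMIs, whereas for Meg3 54.1% do although its curve also reaches far to the right.

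Cells with Meg3 more often held the downstream Rian. In WT ESCs 40.2% of 199 cells with a Meg3 UMI also held a Rian UMI (33.3 to 47.4%), against 9.79% of 235 without (6.31 to 14.3%). The shares were 30.7% and 16.4% in KO ESCs, 46.0% and 17.8% in WT 48h-EpiLCs and 35.8% and 18.3% in KO 48h-EpiLCs, with separate intervals in each class. Without cells of other types, in a separate random thinning, they were 37.7% and 12.2% in WT and 29.6% and 15.0% in KO ESCs. Mirg followed Meg3 too, with 12.1% against 2.98% in WT ESCs and 13.6% against 2.37% in WT 48h-EpiLCs. The divergent pair Peg3 and Usp29 could not be read in this way at these counts, with Usp29 in 9.31% of WT ESCs with Peg3 (6.41 to 12.95%) and 5.94% of those without (2.21 to 12.5%). Peg10, on another chromosome from Peg3, was found in 61.3% of WT ESCs with Peg3 and 64.4% of those without. These shares come from cells of 1 library each and describe that library.

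**Figure D5:**
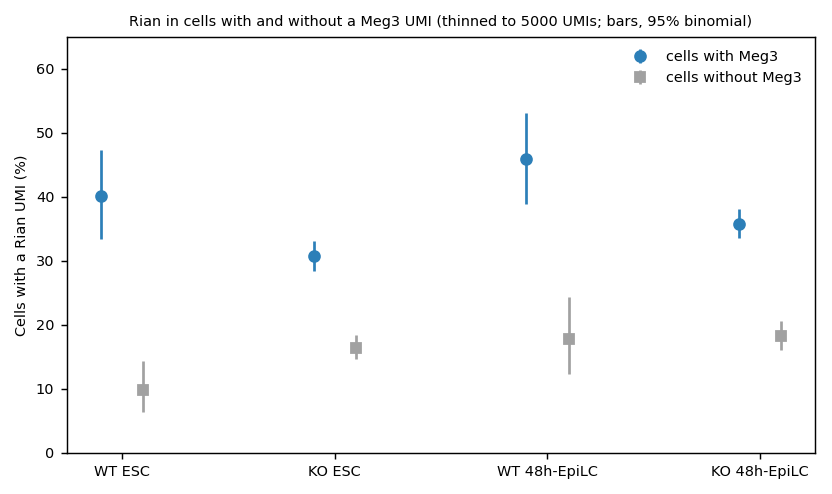
Share of cells (%) with a Rian UMI among cells with (circles) and without (squares) a Meg3 UMI, in the 4 classes, after thinning to 5000 UMIs (bars, 95% exact binomial intervals). The circles lie above the squares in all 4 classes, at 40.2% against 9.79% in WT ESCs and 46.0% against 17.8% in WT 48h-EpiLCs.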

How the data were processed

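Both 10x Chromium 3′ libraries (v2 kit per the labels) were used. The authors aligned reads and counted UMIs with Cell Ranger 3.0.2 against mm10 with the tdTomato coding sequence added, and used Seurat 4. The deposited matrices hold raw UMI counts per gene and barcode. Members and lists were chosen with earlier results of these data known. Barcodes of 1000 or more genes and 10% or less mitochondrial UMIs were kept and assigned to lines as described above. UMIs were summed per class, scaled to CPM, and compared as ratios with exact binomial intervals, and as log2 of CPM + 1. Levels had exact Poisson intervals and shares exact Clopper-Pearson intervals at 95%, with cells thinned to 5000 UMIs and shallower cells left out (1, 23, 1 and 9 in the 4 classes, in the order used above). Ratio intervals were tested on data simulated as Poisson counts, the model on which they rest. There they held the true ratio for 95.5, 95.5, 95.7 and 95.3% of 9277, 9385, 9242 and 9478 genes (KO over WT in ESCs and 48h-EpiLCs, then 48h-EpiLC over ESC in WT and KO). The simulation held no uneven spread over cells such as that of Meg3 and H19, or the smaller one of Peg3. It is therefore no check of the intervals of such genes. No p-value was computed. Other cell types were gated on fixed markers (fibroblast at least 4 of 10 markers and 10 UMIs per 10000, endoderm at least 4 of 8 and 5, 2-cell at least 2 of 9 found and 5). All members are reported, with values in 4 classes for those of at least 20 CPM and ratios for those past 1.5-fold. Positions are from GENCODE M21 (GRCm38). The 13 alternatives, 1 of them chosen after seeing the data, included TMM factors from edgeR 4.0.16. Python 3.11.15, scipy 1.17.1 and numpy 2.4.6 were used.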

Additional observations from a re-analysis of the deposited data

Results flagged for a closer look

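Gnas was on opposite sides of 1 in the 2 libraries. Its KO-WT ratio was 1.15 (1.05 to 1.26) in ESCs and 0.857 (0.796 to 0.924) in 48h-EpiLCs, and the difference between the libraries was not tested, as each stage had 1 library. Without cells of other types the ESC ratio was 0.947 (0.864 to 1.04), at 82.4 CPM in KO and 87.0 CPM in WT ESCs.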

How the results depend on the processing

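Each of the 35 ratios past 1.5-fold was recomputed under 13 alternatives, 1 of which (the main rule for the lines in cells of at least 20000 UMIs) was chosen after seeing the data. Of the 455 values, 404 stayed within the counting interval of the main value and 50 moved beyond it. In 1 case the direction changed, for Grb10 in KO over WT 48h-EpiLCs, at 0.28 with that depth limit. In 35 values a ratio came within 1.5-fold, mostly with that limit or the division by Y-linked UMIs alone in cells of at least 20000 UMIs, and 18 of the 35 ratios stayed past 1.5-fold under all 13. The cause of these shifts was not tested. The depth limit gave 1 member higher in KO 48h-EpiLCs (2 in the main setting), against 7.22% of all genes then measured. The division by Y-linked UMIs gave 1 member higher and 2 lower in KO ESCs (4 and 4 in the main setting). The shares of all genes were then 3.95% and 1.81%. The same division gave 1 lower in KO 48h-EpiLCs (4), against 1.88% of all genes. At 48 h in WT cells it gave 1 higher (6), against 10.9%. A minimum mean CPM of 1, with more genes measured, gave 7 members higher in KO ESCs, against 16.1% of all genes. The added members, Igf2, Slc22a18 and Dcn, had only 3, 3 and 4 UMIs in WT ESCs. They passed the minimum through KO ESCs alone, and Igf2 and Dcn were high in feeder fibroblast-like cells, so this count is no support for a difference. The same minimum gave 4 higher at 48 h in KO cells (main value 1), against 10.3%. A minimum of 20, with fewer genes measured, gave 1 lower in KO 48h-EpiLCs, against 3.11% of all genes. It gave 2 higher at 48 h in WT cells, against 8.96%. Totals without mitochondrial and ribosomal protein genes gave 3 higher at 48 h in KO cells, against 9.60% of all genes. Leaving out cells of other types gave 2, against 9.02%. The member median for KO over WT in ESCs ranged from −0.04 to 0.19, and the other medians stayed below 0. No paired analysis was possible because each stage had 1 library and the result comes from no test. With 435 and 368 WT cells, a count of 0 in a WT class allows up to 0.487 and 0.482 CPM, by the floor of 3 counts.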
